A study of Mus musculus with 6 samples.

Results

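Hematopoietic cytokine receptors were read here as 9 genes, *Epor*, *Csf1r*, *Csf2ra*, *Csf2rb*, *Csf3r*, *Il3ra*, *Il6ra*, *Il6st* and *Ifngr1*, which were taken by gene name from a table of 36976 genes. Each name was listed once, and all 9 passed the filter on low values, which kept 24689 genes with a mean of at least 0.05 FPKM over the libraries. FPKM is the number of fragments per kilobase of transcript, scaled to the mapped total of the library, so levels of different genes can be set side by side per length.

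The libraries came from long-term (LT) stem cells of chronic myelogenous leukaemia (CML), sorted from mouse bone marrow as lineage-negative, Sca-1+ c-Kit+ cells that were CD150+, CD48- and CD135-. All mice were C57BL/6 and carried *SCL-tTA* and *TRE-BCR-ABL1*, so that the human fusion oncogene *BCR-ABL1* was switched on by withdrawal of doxycycline in cells where the *SCL* enhancer drives the transactivator, and all cells were taken 5 weeks after this induction. The 2 groups differed in *Gdpd3*, which encodes a lysophospholipase D: 3 libraries were *Gdpd3*+/+ (replicates 1, 2 and 3, from 22 males and 12 females) and 3 were *Gdpd3*-/- (replicates 5, 6 and 7, from 5 males and 5 females), the latter from a strain with a small genome-edited deletion just after the start codon. A figure legend of the study calls the 3 samples of each genotype biologically independent. The study's methods list the RNA sequencing as resting on "every single experiment". Which mice went into which library was not given, the sexes were mixed in unequal shares, and no library came from mice without *BCR-ABL1*.

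Depth inferred from the table was 4.98 to 6.28 in *Gdpd3*+/+ and 2.13 to 3.64 in *Gdpd3*-/- libraries, in a unit that was not settled. Of the cytokine receptor genes, *Il3ra* rested on the fewest and *Ifngr1* on the most reads in a library. *Gdpd3* itself had 2.95 to 7.30 FPKM in *Gdpd3*+/+ and 0.0129 to 0.681 FPKM in *Gdpd3*-/- libraries. *Gdpd3*-/- replicates 5 and 6 stood apart: over 15103 genes with a mean of at least 1 FPKM their Pearson's r with *Gdpd3*+/+ libraries was 0.799 to 0.840, against 0.930 to 0.933 for replicate 7. Of the sort markers, *Kit* (c-Kit) had 108 to 136 FPKM, *Ly6a* (Sca-1) 342 to 563 FPKM and *Slamf1* (CD150) 5.41 to 13.2 FPKM over the 6 libraries, while *Cd48* had 39.8 to 92.2 FPKM and *Flt3* (CD135) 9.80 to 46.5 FPKM although CD48 and CD135 were gated out. The summed level of 20 skeletal muscle genes was 1005 to 1487 FPKM in *Gdpd3*+/+ libraries and 12941, 18541 and 2467 FPKM in *Gdpd3*-/- libraries. All 20 were higher in every *Gdpd3*-/- library, beside 23.5% of all genes. In limma 0 passed the adjusted threshold, beside 1.09% of all genes called higher. At an unadjusted p under 0.05 in limma all 20 were higher, beside 16.5% of all genes. The summed level of 10 B and plasma cell genes was 117764 to 136162 FPKM in *Gdpd3*+/+ and 40175 to 68870 FPKM in *Gdpd3*-/- libraries. Among markers of other cells, 1 gene was called higher in each of the lists for long-term stem cells, for eosinophils, basophils and mast cells, for dendritic cells and for stromal and endothelial cells, and 0 in those for megakaryocytes and for T and NK cells, with list medians of the log2 fold change from -0.38 to 0.43. The share of all genes called higher was 1.09%. Values are listed throughout in the order of replicates 1, 2, 3 for *Gdpd3*+/+ and 5, 6, 7 for *Gdpd3*-/-.

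Cytokine receptors have no catalytic activity of their own in most cases: the ligand brings receptor chains together, Janus kinases (JAKs) bound to the chains phosphorylate each other and the receptor, and STAT factors are recruited and move to the nucleus. The *Csf2ra*, *Csf2rb*, *Il3ra*, *Il6ra*, *Il6st*, *Epor* and *Csf3r* products belong to the class I family, the *Ifngr1* product to the class II family, and *Csf1r* encodes a receptor tyrosine kinase that carries its own kinase domain. In bone marrow these receptors mark and drive lineages, erythropoietin acting on erythroid precursors, granulocyte colony-stimulating factor (G-CSF) on neutrophil precursors, macrophage colony-stimulating factor on monocytes, and interleukin-3 (IL-3) and granulocyte-macrophage colony-stimulating factor (GM-CSF) on many myeloid progenitors.

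Sequences upstream of a start site were available from RefSeq (build GRCm38.p6) for 7 of the 9 genes, and the first start listed per gene was used. For *Il3ra* and *Csf3r* this start lies inside the gene. The *Il3ra* window begins at 14346245 and the gene at 14345912, and the *Csf3r* window begins at 126024409 and the gene at 126023441. The 250 bases upstream of the start used are shown for the 5 genes whose libraries did not overlap between the genotypes as deposited and that had an entry, so that the 3 genes with the lower values in *Gdpd3*-/- libraries (*Csf2ra*, *Ifngr1*, *Epor*) can be set beside 2 with the higher values (*Il3ra*, *Il6ra*). Capitals mark matches, on either strand, of any of 4 short motifs, which are the ETS core, the GC box, the GATA element and the STAT element spelled out after the sequences.
Csf2ra promoter, chr19:61228419-61228668, minus strand: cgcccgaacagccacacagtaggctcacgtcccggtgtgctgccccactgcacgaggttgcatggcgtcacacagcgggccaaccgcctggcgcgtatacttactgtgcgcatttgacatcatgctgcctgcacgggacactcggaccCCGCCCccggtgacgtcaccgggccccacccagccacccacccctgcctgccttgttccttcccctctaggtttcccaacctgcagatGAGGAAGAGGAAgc
Ifngr1 promoter, chr10:19591699-19591948, plus strand: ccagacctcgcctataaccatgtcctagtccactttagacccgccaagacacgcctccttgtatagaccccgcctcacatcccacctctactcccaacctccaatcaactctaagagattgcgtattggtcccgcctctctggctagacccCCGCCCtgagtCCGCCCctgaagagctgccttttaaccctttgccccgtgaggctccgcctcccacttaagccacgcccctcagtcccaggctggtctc
Epor promoter, chr9:21963577-21963826, minus strand: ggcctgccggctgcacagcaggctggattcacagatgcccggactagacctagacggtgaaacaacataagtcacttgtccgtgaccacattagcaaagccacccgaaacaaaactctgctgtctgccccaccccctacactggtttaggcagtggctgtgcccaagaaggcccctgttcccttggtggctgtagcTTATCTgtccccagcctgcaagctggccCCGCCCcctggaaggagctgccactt
Il3ra promoter, chr14:14346245-14346494, plus strand: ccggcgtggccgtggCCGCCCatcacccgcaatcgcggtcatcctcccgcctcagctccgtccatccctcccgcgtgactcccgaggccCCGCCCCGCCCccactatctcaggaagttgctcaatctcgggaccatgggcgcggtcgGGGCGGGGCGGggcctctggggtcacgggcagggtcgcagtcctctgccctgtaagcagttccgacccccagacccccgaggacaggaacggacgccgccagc
Il6ra promoter, chr3:89913197-89913446, minus strand: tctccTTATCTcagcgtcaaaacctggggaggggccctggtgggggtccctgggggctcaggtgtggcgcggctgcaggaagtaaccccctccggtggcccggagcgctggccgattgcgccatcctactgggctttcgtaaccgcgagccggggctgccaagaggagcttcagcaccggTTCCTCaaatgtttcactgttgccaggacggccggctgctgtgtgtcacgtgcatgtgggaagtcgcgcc
The ETS core, searched as GAGGAA and bound by factors such as PU.1, was found in 3 of the 7 windows (2 adjoining copies in *Csf2ra*, 1 each in *Csf3r* and *Il6ra*), against 23.1% of 27025 promoters of the same length. The GC box, searched as GGGCGG, was found in 5 of the 7, with 5 copies in *Il3ra* of which 2 pairs overlap by a base, against 32.9% of all promoters. The GATA element, searched as AGATAA, was found in *Epor* and *Il6ra*, against 10.3% of all promoters. The STAT element, searched as TTCNNNGAA, was in none of the 7, against 7.18% of all promoters. The first 3 motifs thus each occurred in genes from either side of the comparison, and a match is a description of the letters and not a bound site.

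*Csf2rb* has a neighbour on chromosome 15, *Csf2rb2*, that encodes the mouse's IL-3-specific beta chain, and how far reads can be told apart bears on its value. The coding sequences were 95.2% identical over 2631 aligned bases, and 3.47% of the 150-base windows of the longest *Csf2rb* transcript were also found whole in *Csf2rb2*. The stretch of 120 coding bases in which they differ most is shown, with the 22 differing bases in capitals.
Csf2rb, coding bases 309 to 428: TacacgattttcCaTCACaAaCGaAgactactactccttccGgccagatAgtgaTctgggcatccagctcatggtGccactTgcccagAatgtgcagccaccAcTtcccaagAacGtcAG
Csf2rb2, coding bases 312 to 431: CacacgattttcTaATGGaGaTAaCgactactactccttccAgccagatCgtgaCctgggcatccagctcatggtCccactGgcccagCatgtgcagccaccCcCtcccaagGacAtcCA

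In *Gdpd3*+/+ LT-CML stem cells the receptors spanned a wide range of levels. *Ifngr1* was the most abundant at 138 ± 2.31 FPKM (SD, n = 3), above 98.0% of the genes tested, and was followed by *Csf3r* (35.5 ± 3.03 FPKM), *Csf2ra* (29.6 ± 1.82 FPKM), *Csf2rb* (19.7 ± 0.813 FPKM), *Epor* (15.6 ± 1.91 FPKM), *Il6st* (7.95 ± 0.227 FPKM), *Csf1r* (4.39 ± 0.188 FPKM), *Il3ra* (2.75 ± 0.384 FPKM) and *Il6ra* (2.75 ± 0.191 FPKM). Each gene in this order lay above the next in all 3 libraries, except that the libraries of *Il3ra* and *Il6ra* overlapped. In *Gdpd3*-/- cells *Ifngr1* (85.5 ± 13.3 FPKM) and *Csf3r* (35.6 ± 6.49 FPKM) were again at the top, but *Csf2rb* (28.2 ± 2.06 FPKM) now stood above *Csf2ra* (19.7 ± 5.39 FPKM), without overlap of their libraries. Below them came *Epor* (11.7 ± 3.81 FPKM), *Il6st* (8.0 ± 1.46 FPKM), *Csf1r* (5.71 ± 1.43 FPKM), *Il6ra* (4.62 ± 1.38 FPKM) and *Il3ra* (3.51 ± 0.259 FPKM), and here *Epor* overlapped *Il6st*, *Csf1r* overlapped *Il6ra*, and *Il6ra* overlapped *Il3ra*.

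**Figure D1:**
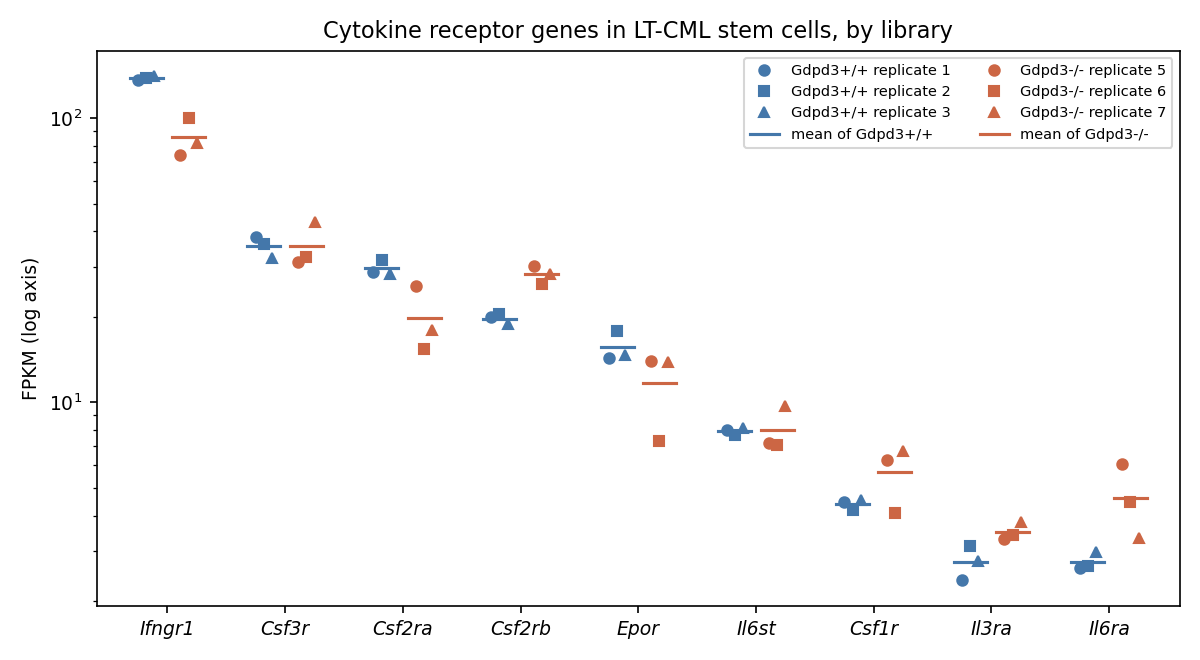
FPKM (vertical log axis) of the 9 cytokine receptor genes in each of the 3 Gdpd3+/+ (blue) and 3 Gdpd3-/- (orange) libraries, with bars at the group means and genes ordered by the Gdpd3+/+ mean. Ifngr1 lay between 136 and 141 FPKM in Gdpd3+/+ and between 74.5 and 100.3 FPKM in Gdpd3-/- libraries, and Csf2ra and Csf2rb exchanged places.

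None of the 9 genes passed an adjusted p of 0.05 between the genotypes in limma's moderated test on log2(FPKM + 0.1), against 1.71% of all genes tested (422 of 24689, of which 1.09% higher and 0.616% lower). The balance of directions turned with the scaling, from 270 genes called higher and 152 lower as deposited to 118 higher and 268 lower with TMM scaling and 119 higher and 206 lower after quantile normalization. At an unadjusted p under 0.05 there were 4 of 9 (*Ifngr1*, *Csf2ra*, *Csf2rb*, *Il6ra*), against 22.2% of all genes, 2 with higher values (16.5% of all genes) and 2 with lower (5.76%). In FPKM as deposited the libraries of the genotypes did not overlap for 6 of 9 genes, against 31.8% of all genes. *Ifngr1*, *Csf2ra* and *Epor* were lower in every *Gdpd3*-/- library (8.27% of all genes) and *Csf2rb*, *Il3ra* and *Il6ra* were higher in every one (23.5% of all genes). This count depends on the scaling. *Il3ra* and *Il6ra* would overlap with TMM scaling, and *Csf2ra* and *Epor* would overlap as shares of each library's total FPKM. The median log2 fold change of the 9 genes was -0.01, beside 0.24 for all genes tested, and the latter became 0.03 with trimmed-mean (TMM) scaling and -0.01 after quantile normalization. Relative to the median of all genes, the log2 fold changes were -0.94 for *Ifngr1*, -0.85 for *Csf2ra*, -0.71 for *Epor*, -0.25 for *Csf3r* and *Il6st*, 0.10 for *Csf1r* and *Il3ra*, 0.27 for *Csf2rb* and 0.45 for *Il6ra*.

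**Figure D2:**
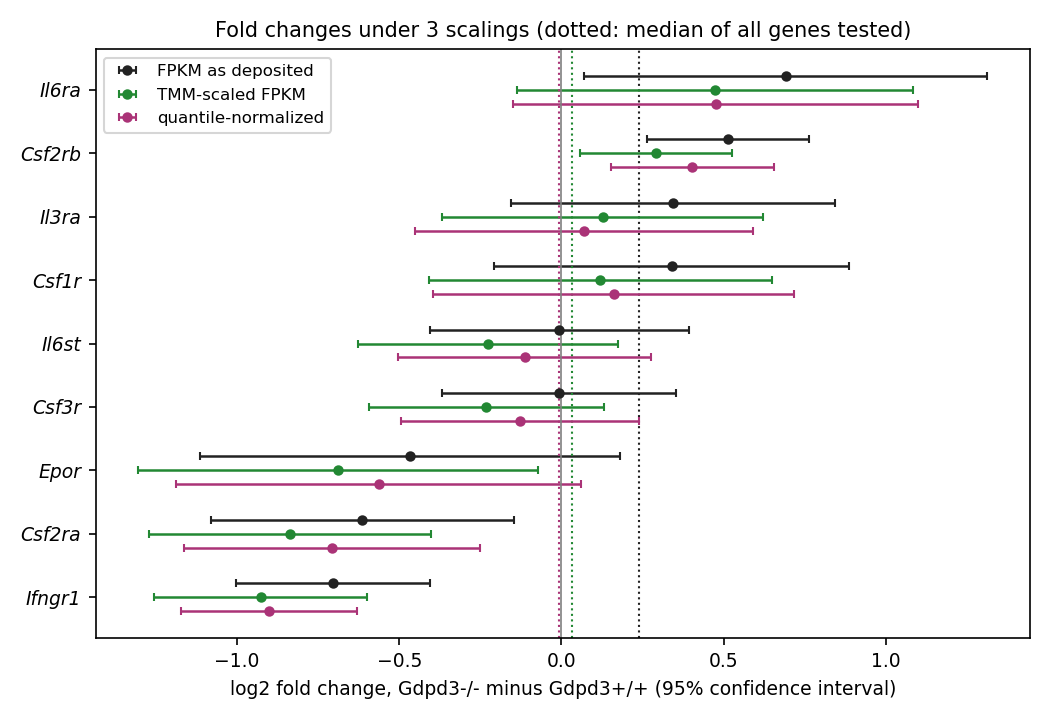
Log2 fold change, Gdpd3-/- minus Gdpd3+/+ (horizontal axis, points with 95% confidence intervals from limma), of the 9 genes under 3 scalings, with dotted lines at the median of all genes tested under each. The Ifngr1 intervals lay below 0 under all 3 scalings (-1.0 to -0.41 as deposited), as did those of Csf2ra, and those of Csf2rb lay above 0, while Ifngr1 alone passed the adjusted threshold, with TMM scaling and quantile normalization.

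The summed level of the 9 genes was 254.9, 261.7 and 253.3 FPKM in *Gdpd3*+/+ and 198.6, 200.6 and 208.7 FPKM in *Gdpd3*-/- libraries (p = 0.1 in a two-sided exact permutation test, which can go no lower with 3 libraries a group). All FPKM came to 787448 to 825906 in *Gdpd3*+/+ and 651750 to 685664 in *Gdpd3*-/- libraries. As a share of all FPKM the 9 genes overlapped, with 0.0324, 0.0327 and 0.0307% in *Gdpd3*+/+ and 0.0290, 0.0308 and 0.0319% in *Gdpd3*-/- libraries. *Ifngr1* was the largest part of the summed level in every library. Its mean went from 138 to 85.5 FPKM, while the mean of the summed level went from 257 to 203 FPKM.

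*Ifngr1* (ENSMUSG00000020009.6, chr10:19311755-19330035, plus strand, mm9) encodes the ligand-binding chain of the interferon-γ receptor, which signals through JAK1 and JAK2. Its level was 136, 138 and 141 FPKM in *Gdpd3*+/+ and 74.5, 100.3 and 81.9 FPKM in *Gdpd3*-/- libraries. All 3 *Gdpd3*-/- libraries lay well below the narrow *Gdpd3*+/+ range, and the *Gdpd3*+/+ mean was 1.62 times the *Gdpd3*-/- mean. Limma gave a log2 fold change of -0.70 (standard error 0.12) with an adjusted p of 0.0514, just outside the threshold. The call passed with TMM scaling (-0.93, adjusted p = 0.0350 in limma), after quantile normalization (-0.90, adjusted p = 0.0271 in limma), and without *Gdpd3*-/- replicate 6 or 7 (adjusted p = 0.0295 and 0.0379 in limma). Over all alternatives the adjusted p ran from 0.00615, for *Gdpd3*-/- replicate 7 against the *Gdpd3*+/+ libraries, to 0.258, without *Gdpd3*+/+ replicate 3. In bulk libraries such as these, fewer cells of a type and less RNA per cell cannot be told apart.

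The second chain of that receptor, *Ifngr2*, which brings JAK2 into the complex, had 9.85, 11.1 and 11.3 FPKM in *Gdpd3*+/+ and 12.1, 12.7 and 12.4 FPKM in *Gdpd3*-/- libraries. Every *Gdpd3*-/- library was thus above every *Gdpd3*+/+ library for this chain, on the other side from *Ifngr1* (log2 fold change 0.20, standard error 0.12, adjusted p = 0.357 in limma), but with TMM scaling the value was -0.02. The target list held 8 genes that interferon-γ is known to induce (*Irf1*, *Irf8*, *Gbp2*, *Cxcl9*, *Cxcl10*, *Ciita*, *Tap1*, *Psmb9*), which were set apart after their values were seen. None passed the threshold, the log2 fold changes ran from 0.21 (*Tap1*) to 1.17 (*Ciita*) with a median of 0.42, and with TMM scaling from -0.02 to 0.99 with a median of 0.26. *Irf1*, a transcription factor, had 25.3 to 31.8 FPKM in *Gdpd3*+/+ and 32.7 to 43.9 FPKM in *Gdpd3*-/- libraries (adjusted p = 0.267 in limma).

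*Csf2ra* (ENSMUSG00000059326.6, chr19:61300305-61304321, minus strand, mm9) encodes the chain that binds GM-CSF. It had 28.7, 31.7 and 28.4 FPKM in *Gdpd3*+/+ and 25.8, 15.4 and 18.0 FPKM in *Gdpd3*-/- libraries. Replicate 5 lay close under the *Gdpd3*+/+ range and the other two lay far under it. In limma this was a log2 fold change of -0.61 (standard error 0.20) with an adjusted p of 0.136, and the adjusted p passed the threshold in 1 alternative, *Gdpd3*-/- replicate 7 against the *Gdpd3*+/+ libraries (0.0493, from limma). The summed levels of neutrophil genes and of monocyte genes, given with *Csf3r* and *Csf1r*, were also lower in all *Gdpd3*-/- libraries. Only 2 of the 14 monocyte genes were lower in every one, beside 8.27% of all genes. The part of either list in the *Csf2ra* and *Ifngr1* values was not tested.

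*Csf2rb* (ENSMUSG00000071713.3, chr15:78156420-78184277, plus strand, mm9) encodes the common beta chain, which GM-CSF, IL-3 and interleukin-5 receptors share and which carries JAK2. Its level was 19.99, 20.4 and 18.8 FPKM in *Gdpd3*+/+ and 30.2, 26.1 and 28.3 FPKM in *Gdpd3*-/- libraries. The *Gdpd3*-/- libraries were all above, and the spread within each genotype was small (coefficient of variation 4.12% and 7.29%). The *Gdpd3*-/- mean was 1.43 times the *Gdpd3*+/+ mean, with a log2 fold change of 0.51 (standard error 0.10) and an adjusted p of 0.0665 in limma. It passed with only genes of at least 1 FPKM tested (adjusted p = 0.0491 in limma), without *Gdpd3*-/- replicate 7 (0.0411) and for replicate 7 alone (0.0487). With TMM scaling it was 0.29, with an adjusted p of 0.18 in limma.

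The near-identical *Csf2rb2*, whose differing bases are shown above, had 4.66, 5.28 and 5.46 FPKM in *Gdpd3*+/+ and 8.51, 3.78 and 6.56 FPKM in *Gdpd3*-/- libraries, which overlapped. With the FPKM of the pair summed into 1 gene the log2 fold change was 0.46, with an adjusted p of 0.0968 in limma. Reads that fit both genes cannot be told apart here, so the split between the pair is uncertain.

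*Il3ra* (ENSMUSG00000068758.6, chr14:15179009-15188004, plus strand, mm9) encodes the IL-3-binding chain, also known as CD123, and was among the lowest of the 9. It had 2.36, 3.13 and 2.76 FPKM in *Gdpd3*+/+ and 3.30, 3.43 and 3.80 FPKM in *Gdpd3*-/- libraries, a narrow gap with no overlap. Its log2 fold change was 0.34 (95% confidence interval -0.15 to 0.84, adjusted p = 0.371 in limma), and 0.13 with TMM scaling. *Il5ra*, the interleukin-5-binding chain used by eosinophils and their precursors, had 4.67, 4.86 and 5.77 FPKM in *Gdpd3*+/+ and 2.12, 0.117 and 1.36 FPKM in *Gdpd3*-/- libraries (log2 fold change -2.54, standard error 0.83, adjusted p = 0.145 in limma). The eosinophil granule genes *Epx* and *Prg2* also had lower values in every *Gdpd3*-/- library, 8.95 to 73.5 against 133 to 179 FPKM for *Epx* and 320 to 1073 against 1628 to 2016 FPKM for *Prg2*, and their part in the *Il5ra* value was not tested. The list of 10 eosinophil, basophil and mast cell genes that holds them and *Il5ra* was split. Without overlap 4 of its genes were above and 4 below, beside 23.5% and 8.27% of all genes. Its median log2 fold change was -0.07, and its summed level was 2060 to 2636 FPKM in *Gdpd3*+/+ and 1105 to 1740 FPKM in *Gdpd3*-/- libraries.

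*Il6ra* (ENSMUSG00000027947.7, chr3:89673246-89717084, minus strand, mm9) encodes the interleukin-6-binding chain. It had 2.62, 2.66 and 2.97 FPKM in *Gdpd3*+/+ and 6.07, 4.47 and 3.33 FPKM in *Gdpd3*-/- libraries. The *Gdpd3*-/- libraries were spread over a wide range whose lowest, replicate 7, was just above *Gdpd3*+/+. The *Gdpd3*-/- mean was 1.68 times the *Gdpd3*+/+ mean, with a log2 fold change of 0.69 (standard error 0.26, adjusted p = 0.188 in limma). Without replicate 7 the adjusted p was 0.0517, and for replicate 7 alone the log2 fold change was 0.27 with an adjusted p of 0.266 in limma, so the size of the difference rests on replicates 5 and 6, the libraries with most skeletal muscle transcripts, whose part in this value was not tested.

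*Il6st* (ENSMUSG00000021756.5, chr13:113265216-113297068, plus strand, mm9) encodes gp130, the signalling chain that interleukin-6 shares with interleukin-11, leukaemia inhibitory factor and oncostatin M. It had 7.99, 7.71 and 8.16 FPKM in *Gdpd3*+/+ and 7.21, 7.10 and 9.68 FPKM in *Gdpd3*-/- libraries. The *Gdpd3*-/- values lay on both sides of the *Gdpd3*+/+ range. The log2 fold change was -0.01, with a 95% confidence interval of -0.41 to 0.39 and an adjusted p of 0.984 in limma, and its sign depended on the libraries used.

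*Epor* (ENSMUSG00000006235.5, chr9:21763343-21768020, minus strand, mm9) encodes the erythropoietin receptor, which signals as a homodimer through JAK2 and STAT5. It had 14.4, 17.8 and 14.7 FPKM in *Gdpd3*+/+ and 14.0, 7.30 and 13.8 FPKM in *Gdpd3*-/- libraries. The gap between the genotypes was narrow for replicates 5 and 7, and replicate 6 alone was far below. Limma gave -0.47 on the log2 scale (standard error 0.27) with an adjusted p of 0.352, and the value was -0.16 without *Gdpd3*-/- replicate 6. Of 14 erythroid genes tested none passed the threshold and their median log2 fold change was -0.57, with *Gata1* at 24.7 to 28.3 FPKM in *Gdpd3*+/+ and at most 24.0 FPKM in *Gdpd3*-/- libraries and *Klf1* overlapping between the genotypes. Without overlap 1 of the 14 lay above and 4 below, beside 23.5% and 8.27% of all genes. The list's summed level was 3237 to 4808 FPKM in *Gdpd3*+/+ and 1986 to 4787 FPKM in *Gdpd3*-/- libraries, and its part in the *Epor* value was not tested.

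*Csf3r* (ENSMUSG00000028859.7, chr4:125701794-125722219, plus strand, mm9) encodes the G-CSF receptor of the neutrophil lineage. It had 38.2, 36.2 and 32.2 FPKM in *Gdpd3*+/+ and 31.3, 32.5 and 43.1 FPKM in *Gdpd3*-/- libraries. The highest and the lowest of the 6 values were both *Gdpd3*-/- libraries. The fitted log2 fold change was -0.01, with a 95% confidence interval of -0.37 to 0.35 and an adjusted p of 0.976 in limma. In the same libraries 6 of 16 neutrophil genes were called lower in *Gdpd3*-/- (*Cebpe*, *Prtn3*, *Camp*, *Ltf*, *Elane*, *Ngp*) and none higher. Of all genes 0.616% were called lower and 1.09% higher. Without overlap 12 of the 16 lay below and 0 above, beside 8.27% and 23.5% of all genes. At an unadjusted p under 0.05 in limma 12 were lower and 0 higher, beside 5.76% and 16.5% of all genes. These 16 genes had a median log2 fold change of -1.54. They summed to 30344 to 33450 FPKM in *Gdpd3*+/+ and 8711 to 14416 FPKM in *Gdpd3*-/- libraries. *Elane*, which encodes neutrophil elastase, had 2916 to 3383 FPKM in *Gdpd3*+/+ and 511 to 1146 FPKM in *Gdpd3*-/- libraries.

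*Csf1r* (ENSMUSG00000024621.8, chromosome 18, plus strand) encodes the receptor for macrophage colony-stimulating factor and interleukin-34. It had 4.46, 4.18 and 4.54 FPKM in *Gdpd3*+/+ and 6.27, 4.09 and 6.76 FPKM in *Gdpd3*-/- libraries. Replicates 5 and 7 lay above the *Gdpd3*+/+ libraries and replicate 6 just below them. On the log2 scale the difference was 0.34 (standard error 0.23) with an adjusted p of 0.420 in limma, and without replicate 6 it was 0.56 with an adjusted p of 0.0937 in limma. In the table's gene models 16.7% of the *Csf1r* exon bases also belong to *Hmgxb3* on the opposite strand, and since the SMART-Seq kit does not mark strand, reads from these bases cannot be assigned to either gene. Of 14 monocyte and macrophage genes 1 was called higher in *Gdpd3*-/- (*Ms4a6c*) and 1 called lower (*Ly6c2*), beside 1.09% and 0.616% of all genes. Without overlap 4 were above and 2 below, beside 23.5% and 8.27% of all genes, and the median log2 fold change was -0.10. The list's summed level was 2944 to 3182 FPKM in *Gdpd3*+/+ and 1734 to 1837 FPKM in *Gdpd3*-/- libraries. The part of these genes in the *Csf1r* value was not tested.

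Ratios of 2 chains within a library do not depend on how libraries are scaled against each other, and 7 of them were compared. The ratio of *Csf2rb* to *Csf2ra*, the beta to the alpha chain of the GM-CSF receptor, was 0.696, 0.643 and 0.663 in *Gdpd3*+/+ and 1.17, 1.69 and 1.57 in *Gdpd3*-/- libraries. The alpha chain transcript was the more abundant in all *Gdpd3*+/+ libraries and the beta chain transcript in all *Gdpd3*-/- libraries, a 2.19-fold difference of the geometric means (log2 difference 1.13, or 1.03 to 1.29 with any 1 library left out). The ratio of *Ifngr1* to *Ifngr2* was 13.8, 12.4 and 12.5 in *Gdpd3*+/+ and 6.16, 7.88 and 6.63 in *Gdpd3*-/- libraries, 1.88-fold higher in *Gdpd3*+/+. The ratio of *Csf2ra* to *Il3ra* was 12.1, 10.1 and 10.3 in *Gdpd3*+/+ and 7.82, 4.50 and 4.75 in *Gdpd3*-/- libraries, 1.96-fold higher in *Gdpd3*+/+. These 3 ratios did not overlap between the genotypes, each with p = 0.1 in the two-sided exact permutation test, the smallest it allows, and 0.233 after Benjamini-Hochberg adjustment over the 7. In each of the 3, 1 gene was higher and the other lower in every *Gdpd3*-/- library as deposited. Their separation and its p therefore follow from the values of the single genes and add no further evidence.

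The other 4 ratios overlapped. *Il6st* to *Il6ra* was 2.75 to 3.06 in *Gdpd3*+/+ and 1.19, 1.59 and 2.91 in *Gdpd3*-/- libraries (p = 0.3, exact permutation test), so that replicate 7 was within the *Gdpd3*+/+ range and the other two were below it. *Csf3r* to *Csf1r* was 7.10 to 8.66 in *Gdpd3*+/+ and 4.99 to 7.94 in *Gdpd3*-/- libraries (p = 0.2), *Csf2rb* to *Il3ra* 6.51 to 8.45 and 7.47 to 9.18 (p = 0.4), and *Csf2rb2* to *Csf2rb* 0.233 to 0.290 and 0.145 to 0.282 (p = 0.4), all by the exact permutation test.

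**Figure D3:**
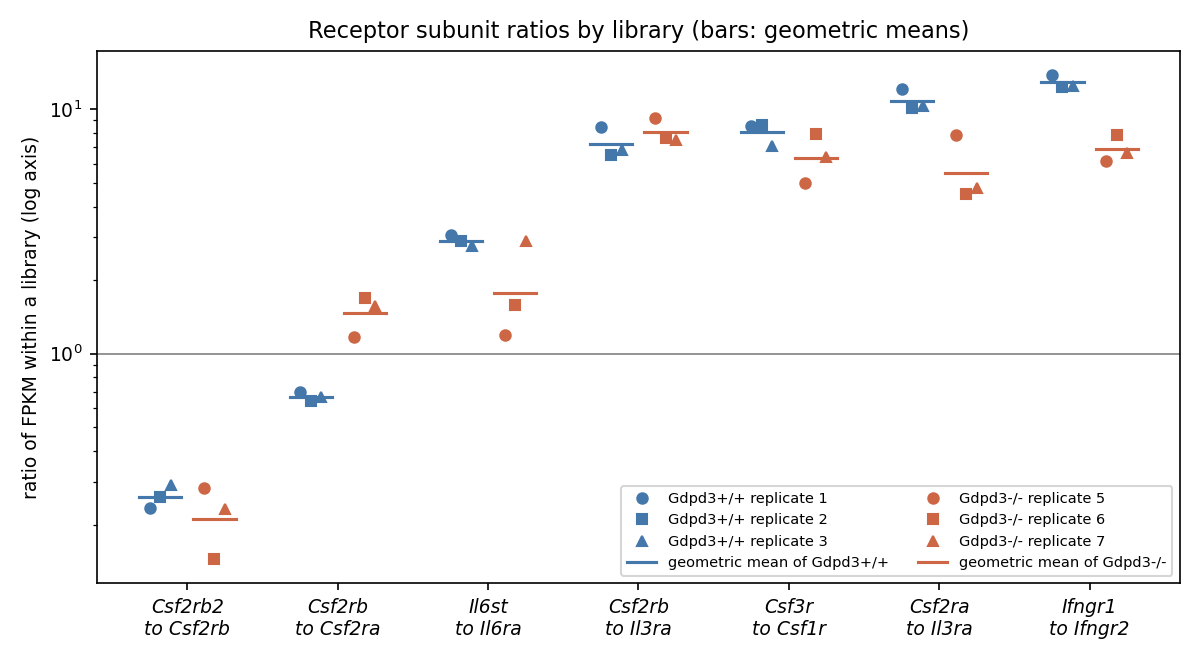
Ratio of FPKM of 2 receptor genes within each library (vertical log axis, grey line at a ratio of 1) for 7 pairs, in 3 Gdpd3+/+ (blue) and 3 Gdpd3-/- (orange) libraries with bars at the geometric means. Csf2rb to Csf2ra lay between 0.643 and 0.696 in Gdpd3+/+ and between 1.17 and 1.69 in Gdpd3-/- libraries, on opposite sides of 1.

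Replicates differed more among *Gdpd3*-/- libraries than among *Gdpd3*+/+ libraries for 8 of the 9 genes. The coefficient of variation of FPKM ran from 1.67% (*Ifngr1*) to 13.9% (*Il3ra*) in *Gdpd3*+/+ and from 7.29% (*Csf2rb*) to 32.6% (*Epor*) in *Gdpd3*-/-, and *Il3ra* alone had the larger value in *Gdpd3*+/+. Of the 15103 genes with at least 1 FPKM, 86.0% had the larger value in *Gdpd3*-/-, so the receptors shared this with the rest of the table. Replicate 6 held the lowest *Gdpd3*-/- value for 5 of the 9 genes (*Epor*, *Csf1r*, *Csf2ra*, *Csf2rb*, *Il6st*).

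Other genes of cytokine signalling were read from lists of further receptors, ligands, JAK kinases, STAT factors, inhibitors, adaptors and kinases, and target genes. Of 109 such genes 108 were in the table and 103 were tested, and 3 were called higher and 1 lower in *Gdpd3*-/-, which is 3.88% beside 1.71% of all genes. Their median log2 fold change was 0.21, beside 0.24 for all genes.

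Among 28 other receptors tested 2 were called higher and none lower, beside 1.09% and 0.616% of all genes. Without overlap 10 lay above and 1 below, beside 23.5% and 8.27% of all genes. *Flt3*, the receptor of FLT3 ligand on multipotent and lymphoid progenitors, had 11.01, 10.6 and 9.80 FPKM in *Gdpd3*+/+ and 46.5, 37.8 and 36.8 FPKM in *Gdpd3*-/- libraries (log2 fold change 1.93, standard error 0.13, adjusted p = 0.00562 in limma). *Il10ra*, the interleukin-10-binding chain, had 6.94, 5.81 and 8.42 FPKM in *Gdpd3*+/+ and 16.2, 15.0 and 12.9 FPKM in *Gdpd3*-/- libraries (log2 fold change 1.06, standard error 0.18, adjusted p = 0.0484 in limma). *Kit*, the stem cell factor receptor, overlapped between the genotypes, with a log2 fold change of -0.13. Of 10 lymphoid progenitor genes, *Flt3* included, 2 were called higher in *Gdpd3*-/- and none lower, and 5 were above and 1 below without overlap. Their median log2 fold change was 1.30, and their summed level was 145 to 161 FPKM in *Gdpd3*+/+ and 108 to 215 FPKM in *Gdpd3*-/- libraries. Of 10 B and plasma cell genes 1 was called lower and none higher, and 1 was above and 6 below without overlap. Their median log2 fold change was -1.04, and their summed level was 117764 to 136162 and 40175 to 68870 FPKM. The part of such cells in the *Flt3* value was not tested.

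Of the 4 JAK kinases *Jak3*, which serves receptors with the common gamma chain, was higher in *Gdpd3*-/-, with 22.2, 22.4 and 19.2 FPKM in *Gdpd3*+/+ and 40.4, 33.6 and 39.4 FPKM in *Gdpd3*-/- libraries (log2 fold change 0.83, standard error 0.12, adjusted p = 0.0362 in limma). *Jak1*, the most abundant, had 53.2 to 55.1 and 51.1 to 55.8 FPKM (log2 fold change -0.03). *Jak2* and *Tyk2* are given here after their values were seen. *Jak2*, the kinase of the *Epor*, *Csf2rb* and *Ifngr2* products, had 25.2, 24.1 and 24.8 FPKM in *Gdpd3*+/+ and 5.96, 17.3 and 20.4 FPKM in *Gdpd3*-/- libraries, lower in each but by very different amounts (log2 fold change -0.94, standard error 0.44, adjusted p = 0.261 in limma). *Tyk2* had 8.38 to 11.4 FPKM in *Gdpd3*+/+ and 13.1 to 14.1 FPKM in *Gdpd3*-/- libraries, higher in each (log2 fold change 0.41, adjusted p = 0.195 in limma). None of the 7 STAT genes passed, and the most abundant were *Stat4*, with 28.0 to 29.5 FPKM in *Gdpd3*+/+ and 35.9 to 49.3 FPKM in *Gdpd3*-/- libraries (adjusted p = 0.126 in limma), and *Stat6*, which overlapped. Among 13 adaptors and kinases the most abundant were *Vav1* (log2 fold change -0.29) and *Grb2* (0.28), neither past the threshold.

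None of 22 inhibitors, 22 target genes or 11 ligands passed. The most abundant inhibitors, the phosphatase genes *Ptpn6* and *Ptprc*, had log2 fold changes of 0.08 and -0.21. Of the target genes *Junb* had 134 to 150 FPKM in *Gdpd3*+/+ and 175 to 332 FPKM in *Gdpd3*-/- libraries (log2 fold change 0.87, adjusted p = 0.1001 in limma), and *Ccnd3* overlapped. The ligands summed to 16.1 to 24.5 FPKM in *Gdpd3*+/+ and 10.1 to 27.1 FPKM in *Gdpd3*-/- libraries, with *Osm* (5.32 to 11.7 FPKM) and *Il6* (0.227 to 8.98 FPKM) the most abundant. *Flt3* was also called with TMM scaling (adjusted p = 0.00609 in limma), while *Il10ra* (0.0841) and *Jak3* (0.0606) were not. Without *Gdpd3*+/+ replicate 1 or 2 none of these 3 passed (adjusted p of 0.0705 and 0.0502 for *Flt3* in limma), and without any 1 *Gdpd3*+/+ library the adjusted p in limma was 0.171 to 0.239 for *Il10ra* and 0.188 to 0.206 for *Jak3*. Without *Gdpd3*-/- replicate 5 the adjusted p in limma was 0.0878 for *Il10ra* and 0.0715 for *Jak3*, and without replicate 6 it was 0.0669 for *Il10ra*. For replicate 7 alone it was 0.152 for *Il10ra* and 0.0577 for *Jak3*, so that neither was called.

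**Figure D4:**
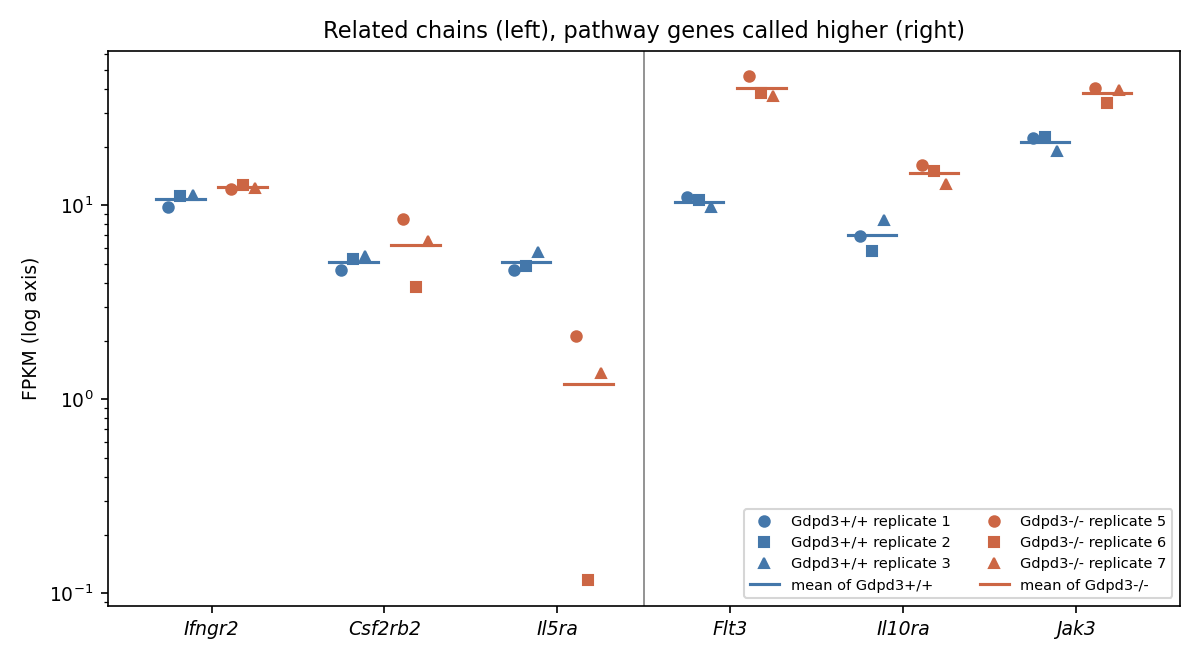
FPKM (vertical log axis) of 3 chains related to the 9 receptors (left of the grey line) and of 3 further cytokine signalling genes that were called higher in Gdpd3-/- (right), in 3 Gdpd3+/+ (blue) and 3 Gdpd3-/- (orange) libraries with bars at the group means. Flt3 lay between 9.80 and 11.01 FPKM in Gdpd3+/+ and between 36.8 and 46.5 FPKM in Gdpd3-/- libraries.

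Of 9641 genes with a mean of at least 5 FPKM, the gene whose log2 level followed a receptor most closely over the 6 libraries was named for 8 of the 9 as a description, without a test and with genotype, depth and the unequal libraries shared by all points. It was *Tmed3* for *Ifngr1* (Pearson's r = 0.998), *Jak3* for *Csf2rb* (0.996), *Ostm1* for *Csf2ra* (0.995), *Sccpdh* for *Il6ra* (0.995), *Ash1l* for *Csf1r* (0.993), *Hnrnpr* for *Csf3r* (0.991), *Snrpb* for *Il3ra* (0.989) and *Rbm5* for *Il6st* (0.983). Over so few libraries many genes came this close: 301 genes had r above 0.95 with *Csf2rb*, and 13 with *Csf3r*. *Jak3* is also 1 of the genes called above.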

How the data were processed

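RNA was measured in 6 SMART-Seq v4 libraries of sorted LT-CML stem cells, fragmented with Nextera XT and read as pairs of 150 bases. The authors mapped the reads and deposited FPKM values for 36976 genes. The submitters' processing notes name cutadapt 1.16, STAR 2.6.1a, featureCounts 1.6.1, DESeq2 and the mouse build mm9, which the table's coordinates fit. A deposited DESeq2 table, with base means, fold changes and p-values of the authors' own comparison, was not used. FPKM times gene length became a whole number (within 0.02) at a depth inferred per library, whose unit was not settled. *Il3ra* came to round values in every library (9800, 17400 and 13300 in *Gdpd3*-/-), and *Gdpd3* to 50 in *Gdpd3*-/- replicate 6. Covered bases of reads of 150 bases would not give such values. Read counts were not used, no count model was run, and the number of independent molecules is unknown.

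Groups follow the genotype label. The main test was limma 3.58.1 (R 4.3.3) with an intensity trend on log2(FPKM + 0.1), genotype as the only term, for genes averaging 0.05 FPKM or more, two-sided, with Benjamini-Hochberg adjustment over all 24689 genes. On this scale the changes of low genes are understated. The fit was tested on simulated data in which both groups varied as the *Gdpd3*+/+ libraries do. In the data the median coefficient of variation was 8.65% in *Gdpd3*+/+ and 23.6% in *Gdpd3*-/-, over genes with at least 1 FPKM. The simulation therefore does not show how the fit performs with this unequal spread. Summed levels and log2 ratios were put to exact permutation tests (two-sided, 20 assignments) in SciPy 1.17.1. Coding sequences (the longest open reading frames of GENCODE M21 transcripts) were aligned with MAFFT. The genes named are the 9 receptors, *Gdpd3*, 3 related receptor chains (*Csf2rb2*, *Il5ra*, *Ifngr2*), every pathway gene called, the 2 most abundant of each pathway list, the gene most like each receptor, and markers beside a result, while the 8 interferon targets were set apart once their values had been read. A few genes that this rule also names are not reported here. The genes, lists and tests were chosen with earlier results of these data known. The lists held 109 pathway genes, of which *Syk* did not match a name in the table, and markers of the sort and of 12 cell types. Settings changed 1 at a time were the pseudocount (0.01 or 1), the filter (none, or a mean of 1 FPKM), the scaling (quantile normalization, or TMM trimming 30% of M and 5% of A values), no trend, array weights, each library left out, *Csf2rb* and *Csf2rb2* summed, medians for means, and, added after seeing the data, *Gdpd3*-/- replicate 7 against the *Gdpd3*+/+ libraries.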

Additional observations from a re-analysis of the deposited data

How the results depend on the processing

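No paired analysis was possible because the labels give the genotypes no replicate number in common. All 56 alternative values of the 7 ratios kept their direction, and 113 of 136 alternative fold changes kept both their direction and their side of the threshold. With no filter, a mean of at least 1 FPKM or no trend the fold change cannot change, so direction was not tested there. All 18 group medians of the 9 receptors lay within 1 SD of the mean, which holds for any set of values. The count of receptors called, 0 of 9 in the test as reported, was 1 with a pseudocount of 0.01, TMM scaling, quantile normalization or array weights, 2 with a mean of at least 1 FPKM, 3 for *Gdpd3*-/- replicate 7 against *Gdpd3*+/+, and 0 to 2 with 1 library left out. The 4 pathway genes called became 2 with a pseudocount of 1, TMM scaling, quantile normalization or array weights, 1 with no filter or no trend, 12 for replicate 7 alone, and 0 to 9 with 1 library left out, the 0 being without *Gdpd3*+/+ replicate 1 or 2 and the 9 without *Gdpd3*-/- replicate 7. Of all genes, 225 were called with a pseudocount of 1, 673 with at least 1 FPKM, 153 with no trend, 240 with array weights, 2294 for replicate 7 alone, and from 0 (without *Gdpd3*+/+ replicate 1, but 3356 at an unadjusted p of 0.05) through 1 and 21 (without *Gdpd3*+/+ replicate 2 or 3) and 187 (without *Gdpd3*-/- replicate 5) up to 3413 (without *Gdpd3*-/- replicate 7).

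*Ifngr1* passed the threshold at -0.70 with a pseudocount of 0.01 or at least 1 FPKM, at -0.93 with TMM scaling, -0.90 after quantile normalization, -0.74 with array weights and -0.76 for replicate 7 alone, and with 1 library left out it ran from -0.82 to -0.61. *Csf2rb* passed at 0.51 with at least 1 FPKM and 0.52 for replicate 7 alone, with 0.46 to 0.57 when 1 library was left out, and *Csf2ra* at -0.71 for replicate 7 alone. The sign of *Csf3r* turned to 0.0651 with array weights and 0.28 for replicate 7 alone, with -0.15 to 0.0765 when 1 library was left out, and that of *Il6st* to 0.0430 and 0.28, with -0.15 to 0.0710. The cause of these changes was not tested. With a single *Gdpd3*-/- library, that library is assumed to vary as the *Gdpd3*+/+ libraries do.

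With 3 libraries a group, single values and ratios cannot fall below p = 0.1 in a permutation test, the *Gdpd3*-/- libraries were read less deeply, and the 95% confidence intervals of *Csf3r* (-0.37 to 0.35) and *Il6st* (-0.41 to 0.39) remain wide, so equal levels were not shown.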
